A study of Caenorhabditis elegans with 2 samples.

Results

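The CCT chaperonin, also called TRiC, is a ring-shaped folding machine of the cytosol that encloses newly made proteins and releases them folded. Its best known clients are actin and tubulin, which the prefoldin complex hands over to it. Each ring is built from different but related subunits, and each subunit has a gene of its own. The 8 subunit genes of Caenorhabditis elegans, cct-1 to cct-8, were taken by name from the gene annotation, out of 19973 protein-coding genes on the 6 chromosomes. NF-Y is a transcription factor of several subunits that recognises the CCAAT box, a common promoter element, through its A subunit.

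Chromatin immunoprecipitation with sequencing (ChIP-seq) was carried out on whole young adult worms of strain RW12238, 64 hours old and synchronised as L1 larvae starved after bleaching. The strain carries the allele st12238[nfya-2::TY1::EGFP::3xFLAG] on chromosome I, a CRISPR insertion that tags one of the worm's NF-Y A subunits with green fluorescent protein, and the precipitation used an antibody to GFP. There was 1 group of 2 biological replicates, both with the tagged allele, and no untagged or other strain was analysed here. The values mix all tissues of the animal, so a strong signal in few cells and a weak one in many cannot be told apart, and sequencing depth is unknown because the peak lists hold no read counts.

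A gene was given every region whose summit, the position of highest enrichment, lay in the gene or within 1000 bp upstream of its start. Genes shorter than 1000 bp, none of them a cct gene, were also given regions up to 1000 bp downstream of the start. In the ranked list built from both replicates, which runs to 71547 regions, 40 regions met this rule at 7 of the 8 genes, and cct-3 had none. Signal means the enrichment value that the authors' peak caller gave a region, in arbitrary units. The irreproducible discovery rate (IDR) is low where a region ranks both high and alike in the 2 inputs compared. For the list built from both replicates these were the replicates. What was compared for the pooled and single-replicate lists is not stated. In the authors' conservative list of 281 peaks no IDR was above 0.00999. Of the 8 genes, 1 had a conservative peak, cct-8, against 1.30% of protein-coding genes. The wider pooled list of 435 peaks reached 2 of the 8, cct-8 and cct-5, against 2.00% of protein-coding genes. In the lists called for each replicate, 1 of the 8 genes had a peak in replicate 1, against 0.456% of protein-coding genes, and 1 of the 8 in replicate 2, against 0.401%. In both of these thresholded lists the gene was cct-8.

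A few windows of the ce11 genome (WBcel235, RefSeq sequence) are given, around the cct-8 peak and the members' strongest regions that hold CCAAT. The strongest regions of cct-1, cct-2 and cct-6 hold no CCAAT either and are not shown. Each window is the plus strand, read 5′ to 3′, and reaches 100 bp to each side of the summit. Capitals mark CCAAT or its reverse complement ATTGG, and CGCGC or its reverse complement GCGCG. The cct-8 window, chrIV:1094261-1094461, holds the conservative peak between cct-8 and its neighbour and has no CCAAT. The cct-5 window, chrIII:4500616-4500816, holds the pooled-list peak in exon 5 and has a CCAAT box at the summit. The cct-4 window, chrII:8283776-8283976, and the cct-7 window, chrV:1873670-1873870, are the other strongest regions that hold CCAAT, and both summits lie in coding exons.
cct-8: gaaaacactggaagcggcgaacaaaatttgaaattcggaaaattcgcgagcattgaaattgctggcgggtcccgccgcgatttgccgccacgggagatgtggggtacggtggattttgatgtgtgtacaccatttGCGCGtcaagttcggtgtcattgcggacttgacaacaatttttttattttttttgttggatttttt
cct-5: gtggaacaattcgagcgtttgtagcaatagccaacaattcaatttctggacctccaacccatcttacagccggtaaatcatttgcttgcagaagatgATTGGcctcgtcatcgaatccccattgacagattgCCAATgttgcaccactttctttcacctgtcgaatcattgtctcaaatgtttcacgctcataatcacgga
cct-4: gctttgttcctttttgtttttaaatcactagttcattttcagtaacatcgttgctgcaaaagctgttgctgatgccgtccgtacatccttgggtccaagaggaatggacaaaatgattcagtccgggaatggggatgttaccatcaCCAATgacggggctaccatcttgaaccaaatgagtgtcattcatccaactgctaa
cct-7: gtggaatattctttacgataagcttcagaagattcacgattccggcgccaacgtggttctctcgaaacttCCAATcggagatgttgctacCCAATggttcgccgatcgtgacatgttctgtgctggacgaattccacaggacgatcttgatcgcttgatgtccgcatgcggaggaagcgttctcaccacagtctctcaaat

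The gene with the strongest signal was cct-8 (WBGene00021934), which encodes the theta subunit and lies at chrIV:1087108-1093920 on the minus strand. Raising the level of this subunit in worms has been reported to increase chaperonin assembly and to lengthen life. Its peak spanned chrIV:1094241-1094480, with the summit 441 bp upstream of the gene start in intergenic sequence. The region had a signal of 106 in the joint list, with 42.8 as the first and 59.3 as the second of the replicate signals listed beside it. Its IDR was 5.6e-04. Only 91 of the 71547 ranked regions were stronger, which is 0.127%, and within the conservative list it ranked 36 of 281. The replicate lists gave the same place with small shifts, at a summit 441 bp upstream and a signal of 42.8 in replicate 1 and at 423 bp upstream and 59.3 in replicate 2. In each replicate's list it was the strongest region of any gene from cct-1 to cct-8.

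The cct-8 peak sat in a divergent promoter. Y55F3AR.2, annotated as a thioredoxin domain-containing protein, starts 621 bp from cct-8 and runs the other way, and the summit lay 180 bp upstream of that start, nearer than the 441 bp to cct-8. The peak was therefore shared by position between the 2 genes, and the lists do not assign it to either. A further region at chrIV:1094764-1095003 reached 44.3, at an IDR of 0.0959, and its summit lay in exon 2 of Y55F3AR.2, 964 bp upstream of cct-8. The remaining region, at chrIV:1093380-1093619 in exon 3 of cct-8, reached 42.9 at an IDR of 0.188. Neither of these was in a thresholded list. For its length cct-8 held few regions, 0.384 per kb of gene and upstream sequence, against a median of 0.751 per kb over protein-coding genes.

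**Figure D1:**
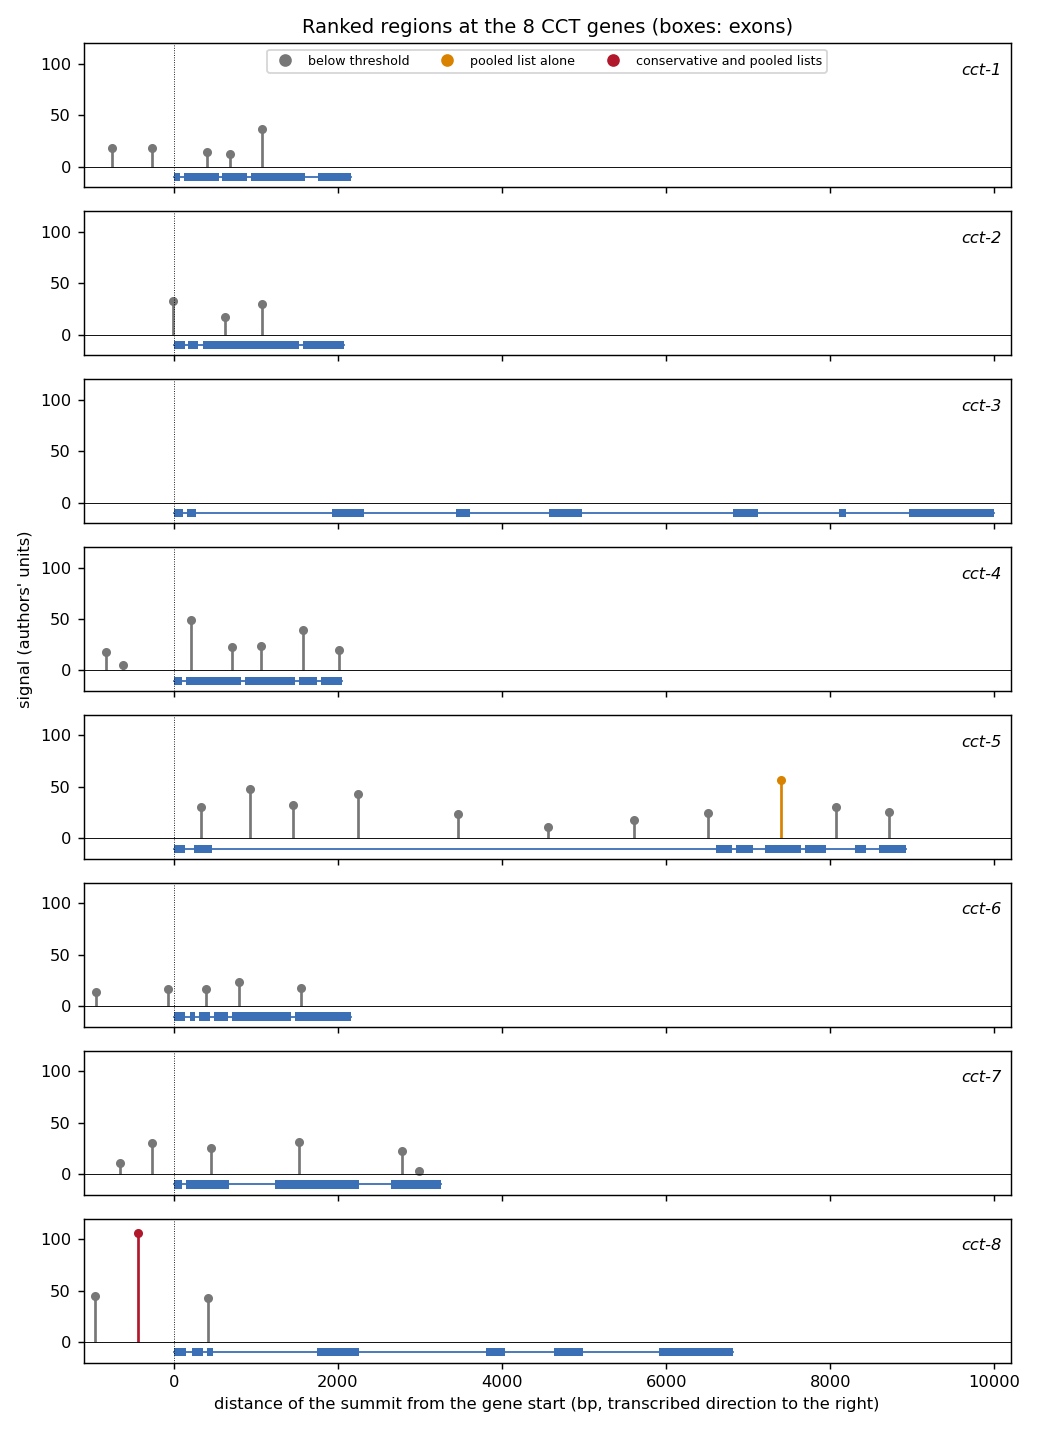
Ranked regions along each of the 8 chaperonin genes, with distance from the gene start in bp on the x axis and the signal of each region on the y axis (boxes, exons; red, conservative and pooled lists; orange, pooled list alone; grey, neither). The cct-8 peak stands at 106, 441 bp upstream of the gene start, while cct-5 holds its strongest region at 56.7 and 7398 bp downstream, and cct-3 has no region.

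The next gene was cct-5 (WBGene00000380), which encodes the epsilon subunit and lies at chrIII:4499188-4508114 on the minus strand. It held 11 of the 40 regions, the largest number of any member, over a gene of 8927 bp. The strongest, at chrIII:4500596-4500835, reached 56.7 at an IDR of 0.0177, and the replicate values beside it were 25.5 and 30.1. Its summit lay in coding exon 5, 7398 bp downstream of the gene start. It was in the pooled thresholded list, where its IDR was 0.0076, and in neither replicate's thresholded list. By signal alone it exceeded 26 of the 281 conservative peaks, and 309 ranked regions outside the conservative list were stronger than it. The next 2 regions of cct-5 were intronic, at 927 and 2250 bp downstream of the start, with signals of 47.8 and 43.2 and IDRs of 0.18 and 0.174. In the joint list no region lay in the 1000 bp upstream of cct-5, while the pooled ranked list had a weak one there, 259 bp upstream at 14.3. The nearest joint-list region outside that window was 1079 bp upstream, at 38.2. That was the joint-list region closest beyond the 1000 bp limit at any member, and the farthest inside it was the cct-8 region at 964 bp. The signal over cct-5 was thus spread along the gene body, unlike the upstream peak at cct-8.

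The delta subunit gene cct-4 (WBGene00000379, chrII:8283667-8285711, plus strand) came next, with 49.0 at chrII:8283756-8283995 in coding exon 2. That summit lay 209 bp downstream of the gene start, its replicate signals were 21.1 and 28.6, and its IDR was 0.0565. The second region of cct-4, in exon 4, reached 39.4 at an IDR of 0.353. The remaining 5 regions lay between 5.05 and 23.5, and the 2 upstream ones, 17.5 and 5.05, lay in exons of the neighbour nst-1 and carried the same pair of replicate signals. No cct-4 region was in a thresholded list, although cct-4 had the most regions for its length, 2.30 per kb.

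The other 4 genes with a region stayed lower. The alpha subunit gene cct-1 (WBGene00000377, chrII:8185443-8187601, plus strand) had its strongest region in exon 4, at 36.5 with an IDR of 0.226, and its replicate signals were 19.5 and 19.7. The beta subunit gene cct-2 (WBGene00000378, chrII:8927741-8929815, plus strand) had a region of 33.2 whose summit lay 6 bp upstream of the gene start, with an IDR of 0.595. Apart from cct-8, cct-2 was the member with the strongest upstream region in the joint list. The eta subunit gene cct-7 (WBGene00020391, chrV:1872246-1875505, plus strand) had 31.2 in exon 3, with an IDR of 0.435, and 30.1 at 267 bp upstream of its start, with an IDR of 0.652. The zeta subunit gene cct-6 (WBGene00000381, chrIII:5853530-5855687, minus strand) had 23.8 in exon 5, with an IDR of 0.629. None of these regions was in a thresholded list, and every IDR lay above 0.1. The weaker regions of these genes ran from 12.9 to 18.5 at cct-1, from 14.3 to 17.9 at cct-6 and from 2.78 to 25.2 at cct-7 beside the 2 already given. At cct-2 they were 17.5 and 29.98, both in exon 3.

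The gamma subunit gene cct-3 (WBGene00018782, chrII:2233540-2243539, plus strand) is the longest of the 8 at 10000 bp and had no region in either joint list. Of the 878 protein-coding genes of 0.8 to 1.25 times its length, 39 had none either, or 4.44%, and over all protein-coding genes 11.5% had none. The replicate 1 list alone gave cct-3 a region 172 bp downstream of its start, with a signal of 18.1 and an IDR of 0.93, and the replicate 2 list gave none. Words of 31 bases that recur in the genome made up 11.2% of the cct-3 span, against at most 0.686% in the other 7 genes. Whether repeats in the gene bear on the missing regions was not tested.

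**Figure D2:**
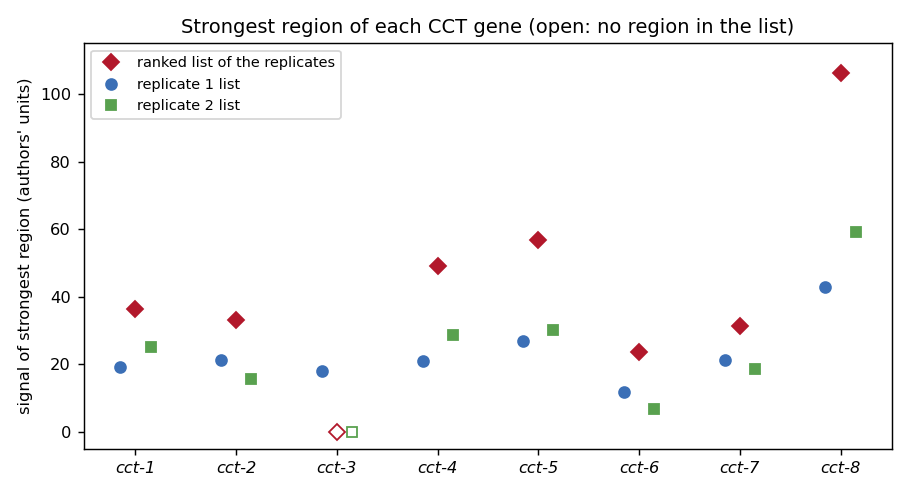
Strongest signal of each chaperonin gene in the joint ranked list (diamonds), the replicate 1 list (circles) and the replicate 2 list (squares), with signal in arbitrary units on the y axis, the genes on the x axis and open symbols at 0 for no region. The cct-8 gene is highest in every list, at 42.8 in replicate 1 and 59.3 in replicate 2.

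Set against all protein-coding genes, the members ranged from cct-3, with no region, to cct-8 near the top. The strongest region of cct-8 was above that of 99.8% of protein-coding genes, that of cct-5 above 97.9% and that of cct-4 above 94.9%. For cct-1 the share was 74.7%, for cct-2 63.5%, for cct-7 56.5% and for cct-6 30.0%. The shares depended on the replicate, least at cct-8. Without replicate 1, cct-2 was above 36.4% and cct-6 above 16.5% of protein-coding genes. Without replicate 2, cct-2 was above 85.1%, cct-7 above 85.3% and cct-3, with its 1 region, above 70.6%. In that setting cct-4 was above 84.3%, lower than both cct-2 and cct-7. The median strongest signal was 34.8 over the 8 chaperonin genes, with cct-3 counted as 0, against 29.6 over all protein-coding genes, and 6 of the 8 lay above that median, 5 of the 8 without replicate 1 and 7 of the 8 without replicate 2. Long genes hold more regions, so each gene was also set against genes of like length. There cct-8 was above 99.7%, cct-5 above 96.6%, cct-4 above 96.5% and cct-6 above 31.1%, and the order of the 8 genes was the same.

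**Figure D3:**
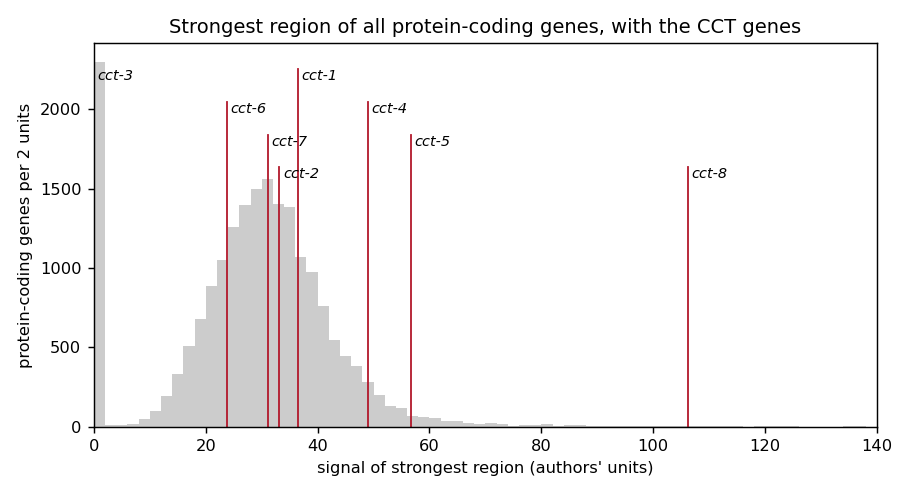
Number of protein-coding genes, on the y axis, by the signal of their strongest region, on the x axis in arbitrary units, with the chaperonin genes marked. Genes without a region count as 0, and 18 genes lie beyond the axis end of 140. The marks run from 0 for cct-3 through 23.8 for cct-6 to 106 for cct-8, which stands in the sparse tail.

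The gap between cct-8 and the rest was present in both replicates. The signal of cct-8 was 1.87 times that of cct-5 in the joint list. It was 1.60 times that of the next member, again cct-5, in the replicate 1 list and 1.97 times in the replicate 2 list. The 2 replicate ratios had an SD of 0.261. The cct-5 region compared was the one in exon 5 in the joint and replicate 2 lists. In the replicate 1 list it was a different one, in exon 2, at 26.8. That exon 2 region had replicate signals of 26.8 and 6.07 in the joint list. The promoter was taken as 1000 bp upstream to 200 bp downstream of the gene start. Within it, in the joint list, cct-8 was 3.20 times the next member, cct-2. Neither replicate's list held a promoter region at cct-2. The next member there was cct-7 at 20.3 in replicate 1 and cct-1 at 15.5 in replicate 2. The strongest cct-4 region fell just outside this promoter window, with its summit 209 bp downstream of the start in the joint list, at 49.0. It lay at 210 bp and 21.1 in replicate 1, and at 207 bp and 28.6 in replicate 2. Each of these signals was above that of the next member named here, so the promoter gap depends on the window's edge. No test was made of this gap, since the 8 genes form a single group with 1 value each and members are not replicates of a condition.

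The 2 replicate signals of a region often differed. The second replicate signal ranged from 0.161 to 1.85 times the first, and its median log2 ratio was −0.08, against −0.12 over all ranked regions. Spearman's rho between the 2 signals was 0.476 over the 40 regions and 0.191 over all 71547, both given as description, since regions of a gene share libraries and neighbours share signal. Of the 40 regions, 5 carried a pair of replicate signals also listed for another region. In the 4-decimal values, 25 of the first signals equalled that of a region within 240 bp in the replicate 1 list and 0 in the replicate 2 list. Likewise, 18 of the second signals equalled one in the replicate 2 list and 0 in the replicate 1 list. An IDR under 0.1 was found for 4 of the 40 regions, those at cct-8, cct-5 and cct-4, against 2.24% of all ranked regions. The IDR ceiling of 0.835 was reached by 14 of the 40, against 45.1% of all.

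**Figure D4:**
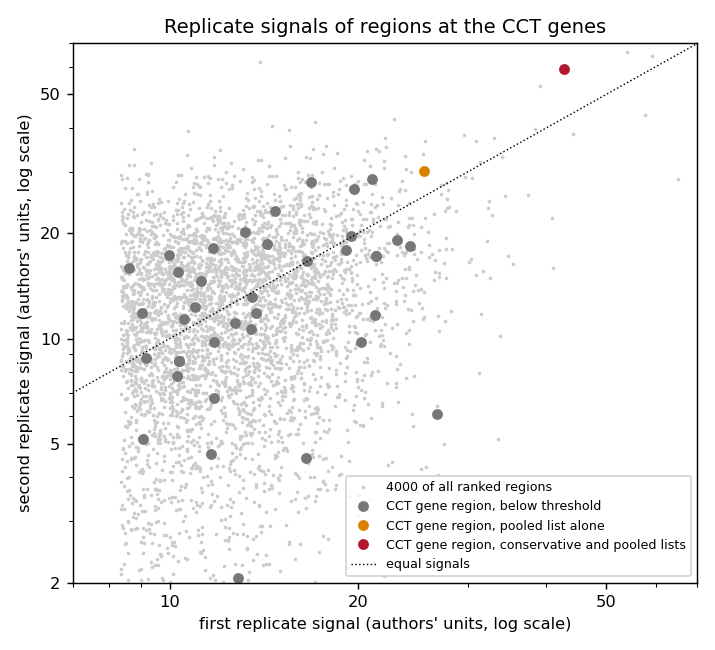
First replicate signal on the x axis against second replicate signal on the y axis, in arbitrary units on log scales, for the 40 member regions over 4000 regions drawn from the ranked list. The cct-8 peak at 42.8 and 59.3 lies apart from the other member regions, and cct-5 follows at 25.5 and 30.1.

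The regions lay mostly inside genes. Of the 40, 23 had their summit in a coding exon, or 57.5%, against 41.9% of the 56430 regions at protein-coding genes. In 18 of these the exon belonged to the chaperonin gene itself, and in 5 to a neighbour. There were 9 in introns, 5 in intergenic sequence and 3 in 3′ UTRs, and 11 lay upstream of the gene start. Several members start close to a divergent gene: 6 of the 8 had one starting within 1000 bp, against 17.7% of protein-coding genes. These were mig-5, a Dishevelled homolog of Wnt signalling, 420 bp from cct-1, and nst-1, a guanine nucleotide-binding protein-like homolog, 459 bp from cct-4. F25F2.1, with a protein kinase domain, starts 741 bp from cct-5, and alh-9, a putative aldehyde dehydrogenase, 331 bp from cct-6. T10B5.4, with an N-acetyltransferase domain, starts 439 bp from cct-7, and Y55F3AR.2 starts 621 bp from cct-8. Only the last of these divergent promoters held a thresholded peak.

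CCAAT was present in a minority of the member regions, at a share near the background. On either strand within 100 bp of the summit, it was present in 12 of the 40 regions, or 30%, against 37.8% of all ranked regions. It was present in the strongest region of 3 of the 7 members with a region, cct-4, cct-5 and cct-7, against 38.8% of the strongest regions of 17672 protein-coding genes. The cct-8 peak had none, at a GC content of 45.3% against a mean of 38.8% over all ranked regions, and its one marked word, CGCGC, occurs in 9.09% of all ranked regions. The conservative peaks of act-4, tba-2, tbb-1 and hsp-60, given below, each held CCAAT near the summit. The share over all conservative peaks is not given here. In the 1000 bp upstream of the start, 7 of the 8 genes held CCAAT, all but cct-7, against 87.8% of protein-coding genes. A window without CCAAT says only that these letters are not in it.

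A longer form of the NF-Y box, CCAAT preceded by 2 purines and followed by C or G and then a purine, was rarer. It was within 100 bp of the summit in 2 of the 40 regions, or 5%, against 2.64% of all ranked regions. One was TGATTGGCC in exon 5 of cct-5, at chrIII:4500711-4500719 and 1 bp from the summit of the strongest region of that gene. The other was AACCAATGA in cct-4, at chrII:8285167-8285175 and 68 bp from the summit of the 39.4 region. In the genes and their 1000 bp upstream there were 6 such sites. Of the 4 others, 2 lay in cct-5, 301 and 289 bp from the nearest summit, and 1 in cct-3, 5228 bp from any. The last, GGCCAATCA, lay upstream of cct-8 at chrIV:1094749-1094757, 131 bp from the 44.3 summit and inside Y55F3AR.2. It made cct-8 the 1 member of 8 with the longer form in its upstream 1000 bp, against 8.77% of protein-coding genes.

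The genes of the chaperonin's partners and clients were read against the same background, in which 1.30% of protein-coding genes had a conservative peak. None of the 6 prefoldin subunit genes had one, and their median strongest signal was 30.5, led by pfd-1 at 46.2 and pfd-3 at 36.2. The median was 43.3 over the actin genes and 36.1 over the tubulin genes, against 34.8 over the chaperonin genes. In the prefoldin and tubulin medians, 1 gene each without a region counts as 0. Of 5 actin genes, 1 had a conservative peak, act-4, at 64.1 in a coding exon, and act-3 followed at 47.4. Of 16 tubulin genes, 2 had one, the alpha-tubulin gene tba-2 at 76.1, with its summit 143 bp upstream, and the beta-tubulin gene tbb-1 at 66.7, 298 bp upstream. The cct-8 peak, at 106, was above all 3 of these client genes. The mitochondrial chaperonin is a separate folding machine, and its genes hsp-60 and Y22D7AL.10 shared a conservative peak at 2245, where the replicate values were 995 and 1256.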

How the data were processed

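The deposited files are peak lists of 2 biological replicates and of both together, on the ce11 assembly per the file headers and labels. They derive from filtered alignments and a control, per the file headers. For the aligner and peak caller, nothing is stated in the labels or headers used here. Signal is the enrichment value the authors deposited for each region, and IDR was computed from the −log10 IDR score in the authors' ranked lists. The authors' thresholded lists were used as deposited. From these, each region was assigned by its summit to genes of Ensembl release 115 with Python 3.11.15, pandas 2.3.3 and numpy 2.4.6, and sequence was read from RefSeq WBcel235, the same build. The assignment and the CCAAT search of both strands were tested on simulated data. The text names all 8 cct genes, any gene that starts within 1000 bp of a named region, and, of each comparison list, genes with a conservative peak and the 2 of highest signal. The members and lists were chosen with earlier results of these data known. The design has 1 group, so no test between groups was made. Which sample each of the 2 replicate signals of the joint list belongs to is not named in the file. Nothing was averaged over replicates. Alternatives changed the list, the distance upstream, the part of the gene, the window around the summit and the scale of the replicate signals.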

Additional observations from a re-analysis of the deposited data

How the results depend on the processing

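Of 25 alternatives for the main counts, ratio and median percentile, 20 stayed within 1.5 times a count or within 1 SD of the 2 replicate lists for other values, which is a wide band with 2 replicates. The conservative count of 1 member rose to 2 with the pooled thresholded list and was 1 in each replicate's thresholded list. The ratio of cct-8 to the next member ran from 1.60 to 1.97 with 1 replicate left out, and was 3.20 in the promoter alone. The median percentile of the members among protein-coding genes, 69.1, ran from 68.5 to 84.7 with 1 replicate left out, the higher value without replicate 2, and was 49.8 in the promoter alone. Single members moved further. With 1 replicate left out, cct-2 ran from 36.4 to 85.1, cct-6 from 16.5 to 32.0, cct-7 from 53.2 to 85.3 and cct-3 from 0 to 70.6, while cct-8 ran from 99.6 to 99.8. For cct-4 the range was 84.3 to 92.1, below its 94.9 in the joint list. In the promoter alone cct-1 was at 50.9, cct-4 at 48.7, cct-5 at 0 and cct-6 at 48.1. There cct-2 rose to 86.2 and cct-7 to 80.2, and cct-8 was at 99.8. The strongest cct-4 region, with its summit 209 bp downstream of the start, lay just past the 200 bp edge of the promoter and was not counted. In the promoter cct-4 was instead given by its upstream region of 17.5. With 2000 bp upstream cct-6 was at 18.9 and cct-7 at 77.2. The causes were not tested. Genes of like length were added as an alternative after the data were seen. With 2 replicates, no read counts and no untagged strain, neither depth nor background binding could be judged.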

Other observations

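The pooled ranked list held 54 regions at the chaperonin genes, of which 39 were also in the joint list of the replicates and 15 were not. One of the 15 lay 29 bp downstream of the start of the shorter cct-8 transcript, Y55F3AR.3b.1, with a signal of 28.1 and an IDR of 0.509. The strongest of the 15, with a signal of 30.7, lay in exon 5 of cct-1.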
